A study of Drosophila melanogaster with 2 samples.

Results

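Burdock is an LTR retrotransposon of *Drosophila melanogaster*, and the lists of ovarian RNA analysed here held 11 of its genomic insertions together with 3 genes, cic, CG9766 and CG14669, that carry a Burdock insertion in an intron. The 11 insertions were chosen by name from the authors' list of features that were higher in homozygous CG5508 mutant ovaries when reads with up to 10 mapping positions were counted. The 3 genes were chosen because each holds one of those insertions on its own strand. The list held 367 entries, or 1.55% of those the authors tested as far as their p-values imply, and the 14 members stood among its 271 genes, insertions and piRNA cluster strands, of which 184 were insertions. The choice rests on the authors' mean, fold and adjusted p with up to 10 mappings, so those values are given as a description and were not tested again.

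RNA was sequenced from whole ovaries of flies homozygous for z3-5967, an allele of CG5508 (minotaur), and from ovaries of flies heterozygous for the same allele, with 1 library per genotype. The flies of both groups were 3 to 5 days old and kept at 25 °C, and the control ovaries also carried a mutant copy of the gene. With 1 library each, no difference has a replicate check, and every interval of a ratio or count below is an exact 95% interval on reads that covers counting error only and compares these 2 libraries. In the lists with up to 10 mappings the authors headed the per-library columns zucMUT and zucCD, names that point to another piRNA pathway gene and to no sample of this series. These columns were not used. Of 134 entries shared with the lists of uniquely mapped reads, whose headings name a mutant and a heterozygous control, 34 had exactly the same reads in both libraries when reads were derived from mean and fold, and in all 134 neither library had fewer reads with up to 10 mappings than with unique mapping. The values below were therefore read as those of the CG5508 libraries, which the headings themselves do not say. The lists hold features that passed the authors' test, so nothing is known here of the level of a feature that is not listed, CG5508 itself included.

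An LTR retrotransposon is a mobile element with a long terminal repeat at each end. Its RNA starts in the upstream repeat, runs through the whole element and serves both as messenger RNA and as the template for a new DNA copy. Burdock belongs to the gypsy group and is known as an element that the piRNA pathway silences in germline cells of the ovary. In that pathway short RNAs guide Piwi proteins to transposon transcripts, and minotaur is a glycerol-3-phosphate acyltransferase that the study's title places in primary piRNA production.

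All 7 listed insertions of near full length rose to almost the same level. Burdock{}770, on 2R from 7815727 to 7822138 in dm6, was highest, with 4460 normalized reads in the homozygous library and 170.3 in the heterozygous library. Its fold was 26.2 (22.2 to 31.1), with an adjusted p of 2.88e-27 in the authors' deposited table. Burdock{}1394, inside cic, had 4459 normalized reads in the homozygous library and 170.3 in the heterozygous library, a single read below Burdock{}770 in the homozygous library. These per-library values were derived from the authors' deposited mean and fold, as both together fix them.

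Burdock{}107 on X, Burdock{}514 on 2L and Burdock{}783 on 2R had 4444, 4443 and 4442 normalized reads in the homozygous library and 168.0 each in the heterozygous library. The heterozygous count was 145 reads for each of these 3 insertions, and the homozygous counts were 5150, 5149 and 5148 reads. Insertions on 3 chromosome arms were thus within 2 reads of each other in both libraries. Burdock{}1187 in CG9766 had 4318 normalized reads in the homozygous library and 159.9 in the heterozygous library. Burdock{}1221 in CG14669, at 6403 bases the shortest of the 7, had 4152 normalized reads in the homozygous library and 161.1 in the heterozygous library. Across the 7 insertions the highest homozygous count was 1.07 times the lowest, and the same ratio held in the heterozygous library. Their folds lay between 25.8 and 27.0. The 7 values are not separate measurements, since with up to 10 mappings allowed 1 read can be counted at several copies of near-identical sequence. How many of the reads came from which copy was not analysed here.

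**Figure D1:**
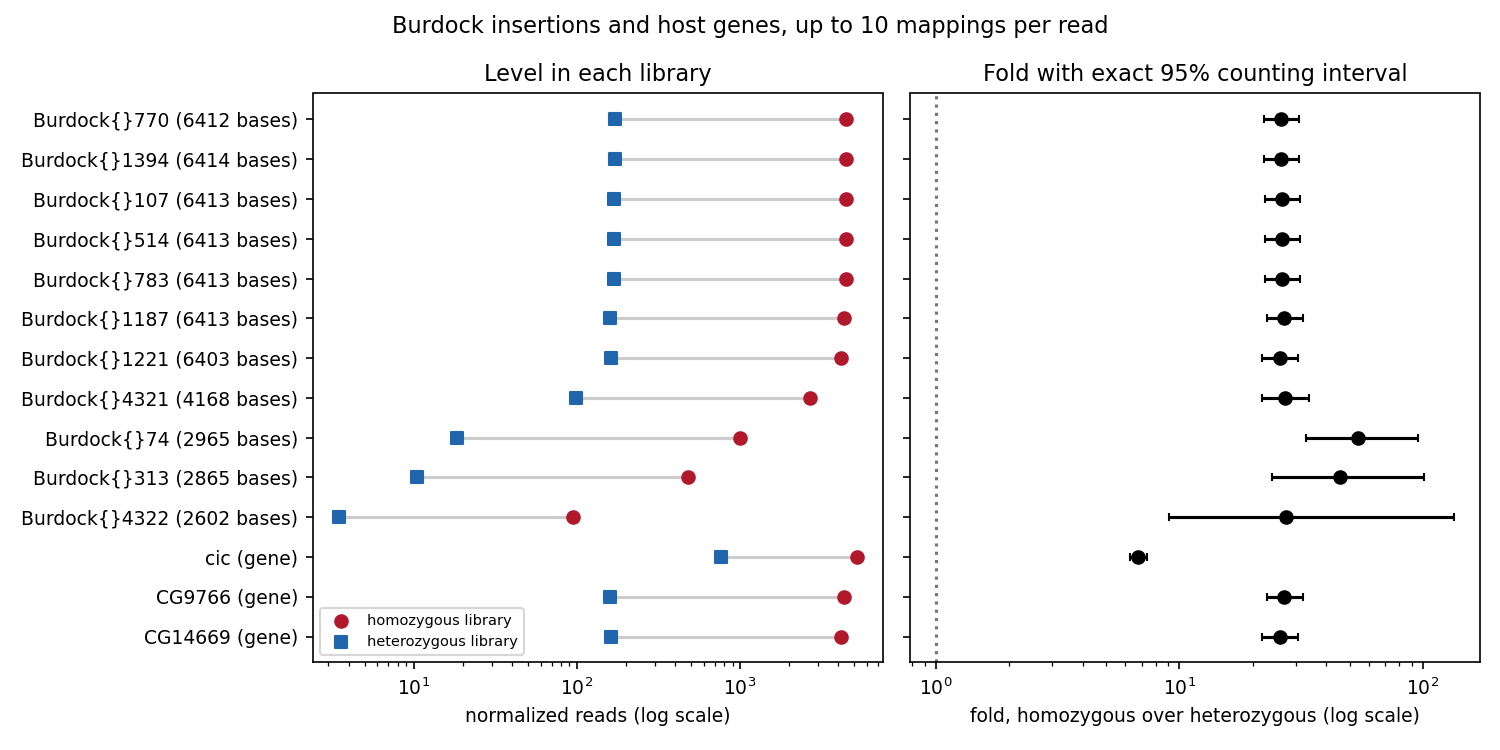
Normalized reads of each member in the homozygous (circles) and heterozygous (squares) library on a log axis, and the fold with its exact 95% counting interval. The 7 insertions of at least 6400 bases sit at 4152 to 4460 normalized reads in the homozygous library and 159.9 to 170.3 in the heterozygous library, the 4 shorter ones lie lower in both libraries, and the fold of cic, 6.77, is the smallest of the members.

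The 4 shorter listed insertions were lower in level in both libraries, and their folds ran from 27.1 to 54.2. Burdock{}4321, on X with 4168 bases, had 2670 normalized reads in the homozygous library and 98.50 in the heterozygous library, a fold of 27.1 (21.9 to 34.0). Burdock{}74, on X with 2965 bases, had 1004 normalized reads in the homozygous library and 18.54 in the heterozygous library. Its fold of 54.2 (33.2 to 95.1) was the largest of the members, and its interval lay above those of the 7 longer insertions, whose upper ends reached 32.2. It overlapped the intervals of Burdock{}4321, Burdock{}313 and Burdock{}4322, and the 7 longer insertions are not separate measurements. The heterozygous value of Burdock{}74 rests on 16 reads, some of which may be shared with other copies, so the difference in fold between copies was not tested. Burdock{}313, on 2L with 2865 bases, had 477.2 normalized reads in the homozygous library and 10.43 in the heterozygous library, a fold of 45.8 (23.9 to 101). Burdock{}4322, on X with 2602 bases, had 94.92 normalized reads in the homozygous library and 3.476 in the heterozygous library, which is 3 reads. Its fold of 27.3 therefore has an interval of 9.10 to 134, and its adjusted p in the authors' deposited table, 0.00474, was the highest of the members and so the nearest to the edge of the list, where the largest adjusted p was 0.0985.

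The shorter copies differed from each other also in reads per length. Per kilobase of insertion, the 7 longer copies held 648 to 696 normalized reads in the homozygous library and 24.9 to 26.6 in the heterozygous library. Burdock{}4321 held 641 normalized reads per kilobase in the homozygous library and 23.6 in the heterozygous library, close to the longer copies. Burdock{}74 held 339 and Burdock{}313 held 167 normalized reads per kilobase in the homozygous library, against 6.25 and 3.64 in the heterozygous library. For Burdock{}4322 the values were 36.5 normalized reads per kilobase in the homozygous library and 1.34 in the heterozygous library. Which bases of the element the shorter copies retain was not analysed here. Reads with more than 10 mapping positions were left out of these counts, and how many each copy lost is not known.

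The dm6 annotation names 24 Burdock copies, of which these 11 were listed. That is 45.8%, beside 3.09% of all annotated insertions, and since the list itself chose the members nothing further is read from this share. Of 8 copies of at least 6400 bases, 7 were listed. The exception was Burdock{}6611, which at 6415 bases lies on 2R from 903983 to 910397. Of 10 copies of 2379 to 4168 bases, 4 were listed, and 6 of 2379 to 3267 bases were not. None of the 6 copies of 107 to 1542 bases was listed. The listed copies lay on 4 chromosome arms, with 4 on X, 3 on 3R and 2 each on 2L and 2R. The authors worked on dm3, and the sources used here do not say whether every dm6 copy was among the features they counted.

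**Figure D2:**
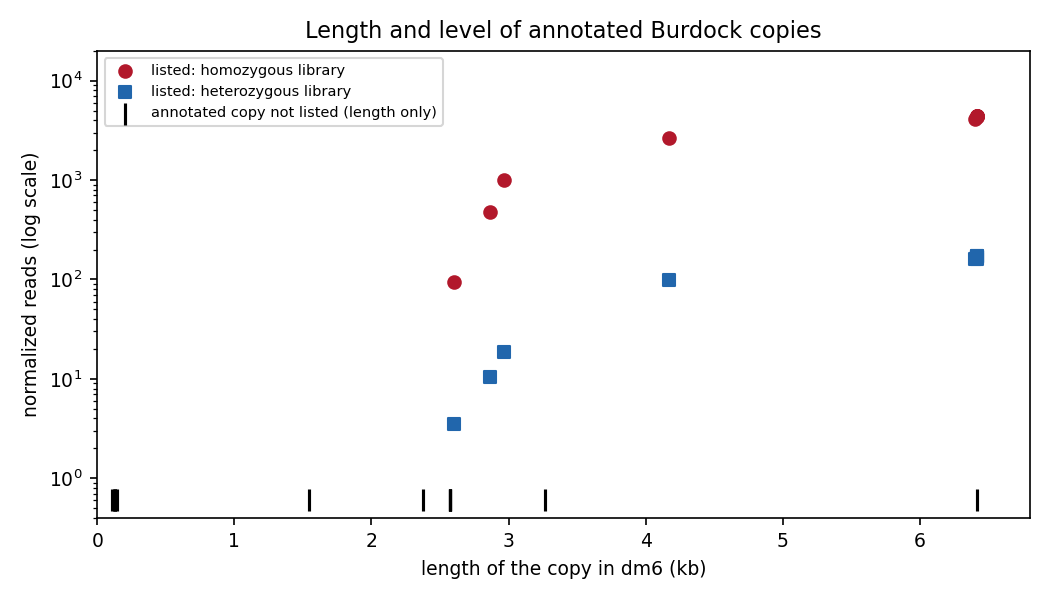
Length of the 24 annotated Burdock copies against their normalized reads on a log axis, in the homozygous (circles) and heterozygous (squares) library for the 11 listed copies. Bars at the bottom mark by length alone the 13 copies that were not listed. All listed copies have at least 2602 bases, and copies of 3267 and 6415 bases were among those not listed.

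The host genes were examined next, to see how much of each gene's value was that of its insertion. CG9766, named flip in dm6 (FBgn0037229), lies on the minus strand of 3R from 4269221 to 4277928. Its intron 1 of 3 holds Burdock{}1187, from 4270790 to 4277202, and the insertion makes up 73.6% of the gene's length. CG9766 had 4320 normalized reads in the homozygous library and 159.9 in the heterozygous library, and its fold of 27.0 was that of its insertion. The gene had 5006 homozygous and 138 heterozygous reads, and the insertion had 5004 homozygous and 138 heterozygous reads. The gene exceeded the insertion by 2 homozygous reads and by 0 heterozygous reads. Both entries of CG9766 in the list, for different transcripts, had these same counts.

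CG14669 (FBgn0037326) lies on the plus strand of 3R from 5414527 to 5458394 and holds Burdock{}1221, from 5446016 to 5452418, in intron 4 of 7 of the listed transcript. Here the insertion is 14.6% of the gene's length. CG14669 had 4153 normalized reads in the homozygous library and 161.1 in the heterozygous library, a fold of 25.8 (21.8 to 30.7). The gene had 4813 homozygous and 139 heterozygous reads, and its insertion had 4811 homozygous and 139 heterozygous reads. As in CG9766, 2 homozygous reads and 0 heterozygous reads were left beyond the insertion. The listed transcript's span has 36671 bases outside the insertion, of which 3648 bases are exonic. Where in the gene these 2 reads lie is not known.

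A remainder of 2 reads has an exact interval of 0.242 to 7.22 reads, and for a count of 0 the one-sided limit of 3 reads, or 3.48 normalized heterozygous reads, was used. Both remainders of CG9766 and CG14669 are therefore at or below the floor of 3 counts, and no fold is given for them. The subtraction takes every read of the insertion to have been counted for the gene as well. That cannot hold for every host gene of the list, since CG32850, with 380 homozygous reads, had fewer than the 1990 of the Stalker2 insertion inside it in dm6. The values listed for these 2 genes thus hold, beyond their Burdock insertion, almost no reads from which a level of the gene could be read in either library.

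**Figure D3:**
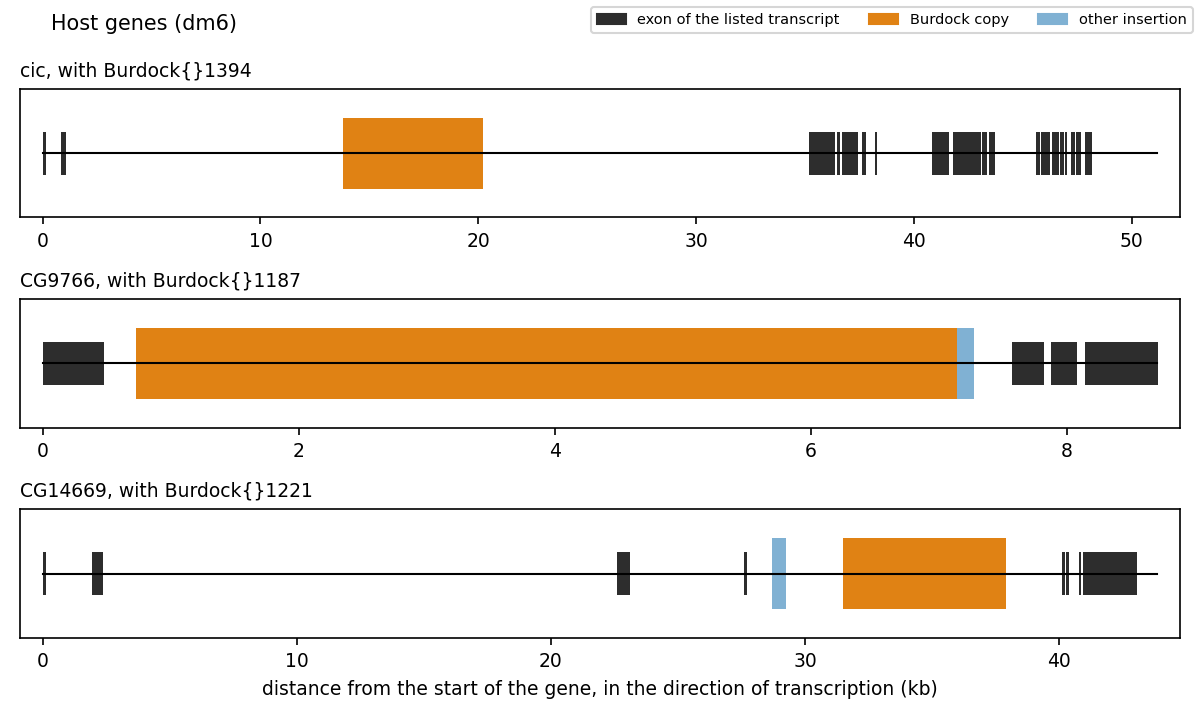
The 3 host genes drawn to scale from their annotated start in kilobases, with exons of the listed transcript, the Burdock copy and other annotated insertions. The copy lies within intron 2 of cic, intron 1 of CG9766 and intron 4 of CG14669, and it overlaps no annotated exon of its gene.

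Cic differed from the other 2 genes. It encodes Capicua, an HMG-box repressor of transcription that acts below receptor tyrosine kinase signalling and patterns the eggshell and the embryo. The gene (FBgn0262582) lies on the plus strand of 3R from 20252770 to 20303942, and Burdock{}1394 lies in intron 2 of 18 of the listed transcript, from 20266571 to 20272984. Cic had 5185 normalized reads in the homozygous library and 766.0 in the heterozygous library, a fold of 6.77 (6.25 to 7.35), with an adjusted p of 1.21e-11 in the authors' deposited table. The fold of its insertion was 26.2.

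Reads beyond the insertion were many in cic. The gene counted 6009 reads in the homozygous library and its insertion 5167, which is 85.99% of the gene's reads. In the heterozygous library the gene counted 661 reads and the insertion 147, which is 22.2%. The remainder was 842 homozygous reads and 514 heterozygous reads. In normalized reads this is 727 in the homozygous library and 596 in the heterozygous library, a ratio of 1.22 (1.09 to 1.36), against 6.77 for the gene as listed. The smallest fold in the authors' list of higher features with up to 10 mappings was 2.20. Per kilobase of the listed transcript's span outside the insertion, the remainder was 17.4 normalized reads in the homozygous library and 14.3 in the heterozygous library. The interval around 1.22 covers counting error alone, and without a second library per genotype the ratio cannot be set against the spread between ovary samples.

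**Figure D4:**
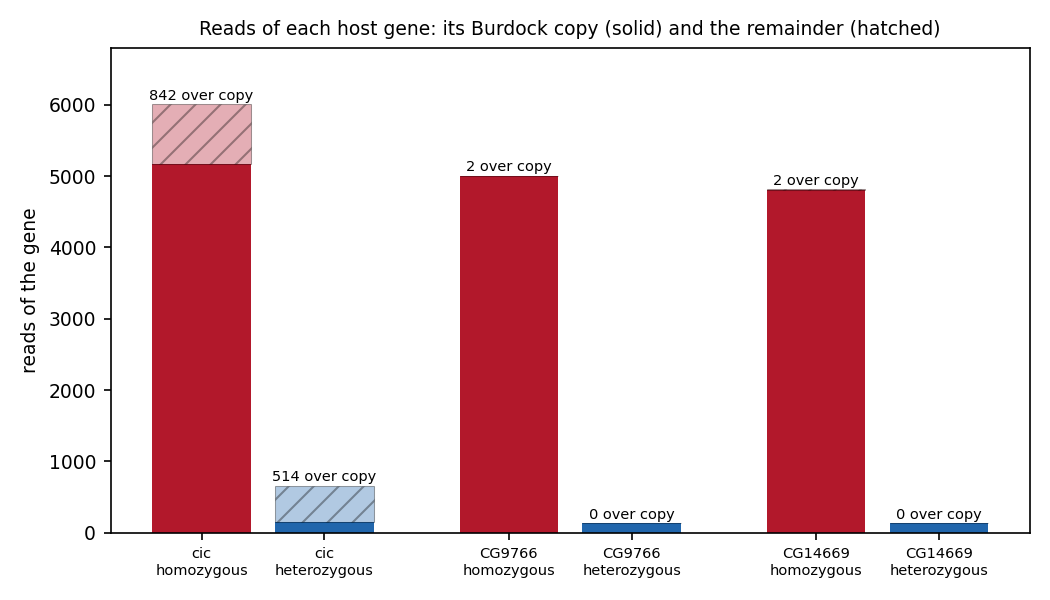
Reads of each host gene in the homozygous (left) and heterozygous (right) library, divided into the reads of its Burdock copy (solid) and the remainder (hatched). CG9766 and CG14669 leave 2 homozygous and 0 heterozygous reads, whereas cic leaves 842 homozygous and 514 heterozygous reads.

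Transcripts of cic differ in whether they span the insertion. Of 6 cic transcripts in dm6, 2 start upstream of Burdock{}1394 and span it, and FBtr0305029, the only cic entry in the list, is one of them, while FBtr0334305, the other, was not listed. The remaining 4 start at least 20059 bases downstream of the insertion, and none of them was listed. Of the 4 transcripts of CG14669, 3 span the insertion, and 1 of these 3, FBtr0078679, was the entry listed. The sources used here do not say which of the dm6 transcripts the authors' annotation held.

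None of the 3 genes and none of the 24 Burdock copies was in the lists of uniquely mapped reads, in either direction. In the higher list of uniquely mapped reads, 0.339% of annotated insertions and 0.147% of annotated genes were present. These shares are over all annotated features, whereas the members were already listed with up to 10 mappings. Of annotated dm6 features, 182 insertions and 62 genes were in the higher list with up to 10 mappings. The higher list of uniquely mapped reads held 20 insertions, of 11 families, and 27 genes. Its smallest fold was 2.23 and its smallest mean 33.4 normalized reads. The 1.22-fold remainder of cic came from counts that were not limited to unique mapping, so it cannot be set against these folds. The value of cic with unique mapping is not known, and the reason for its absence was not tested.

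Genes around the insertions were looked up to see whether others were listed. Within 5000 bases of any annotated Burdock copy lay 47 genes, and the 3 host genes were the only ones in any of the 4 lists of genes and insertions, where 0.474% of annotated genes appeared. Burdock insertions that were listed also lay inside 6 genes on the opposite strand. These were nolo, Drak, which encodes a kinase related to death-associated protein kinase, pigs, a target of Notch signalling in the ovary, cathD, which encodes the lysosomal protease cathepsin D, and the overlapping genes stnA and stnB of endocytosis at synapses. None of the 6 was listed, while the insertions in nolo, Drak, pigs and cathD had folds of 26.4, 26.4, 54.2 and 26.2. The insertion in stnA and stnB, Burdock{}4322, had a fold of 27.3 on only 3 heterozygous reads. Burdock{}783 overlaps the end of CG30345 on the same strand by 536 bases, and CG30345 was not listed. Insertions that were not listed lay on the same strand inside RapGAP1, which encodes a GTPase-activating protein for Rap, and inside CG32017 and asRNA:CR45600, and none of these 3 was listed.

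Genes that contain a listed Burdock insertion were thus listed in 3 of 3 cases on the same strand, a count fixed by the choice of members, and in 0 of 6 on the opposite strand. For listed insertions of other families the counts were 19 of 26 on the same strand and 1 of 25 on the opposite strand, beside 0.338% of all annotated genes. A gene without listed status has no value here, so a smaller difference in the opposite-strand hosts was not detectable. Use of strand in the authors' counting was not stated in any source used here.

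CG9766 and CG14669 matched their insertion in level more closely than cic did. By the means of the authors' deposited table, CG9766 exceeded its insertion by 0.0385% and CG14669 by 0.0400%, and cic was 1.286 times its insertion. Over 19 host genes of other families the ratio ran from 0.234 to 2.61 with a median of 1.03, and 13 of the 19 were within 10% of their insertion. The 4 hosts of Transpac, an LTR retrotransposon with a median fold of 67.7, were 1.01 to 1.07 times their insertion. A remainder of at most 2 reads in each library was found for 2 of the 3 Burdock hosts, for 0 of the 4 Transpac hosts and for 3 of all 19 hosts of other families.

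**Figure D5:**
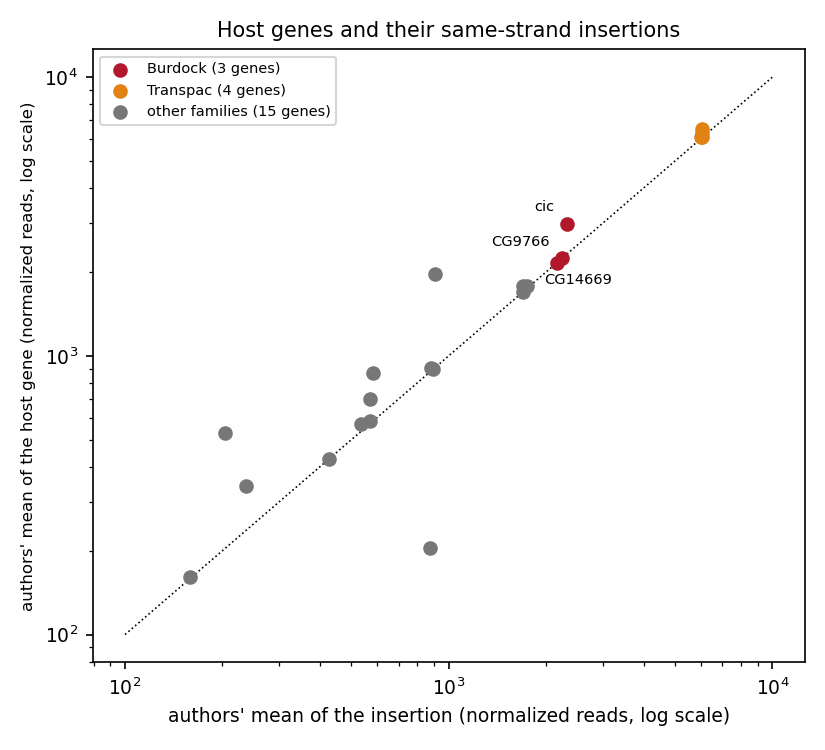
Authors' mean of each listed host gene against that of its same-strand insertion, both on log axes, with a dotted line where they are equal. CG9766 and CG14669 lie on the line, cic lies above it at 1.286 times its insertion, and the 4 Transpac hosts lie close to it.

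Set beside other families with at least 10 listed insertions, the median fold of Burdock was 26.4. The authors' folds gave higher medians, 109 and 44.2, for blood and HeT-A, and lower ones, 16.3 and 14.3, for the I element and HMS-Beagle. Over all 184 listed insertions, leaving out 4 with no heterozygous reads, the median was 15.2. The largest fold among the 11 Burdock insertions was 2.10 times the smallest, against 2.22 times in HMS-Beagle, 4.58 in I, 14.4 in blood and 16.5 in HeT-A. Some families with fewer listed insertions had a narrower range of folds, such as Transpac (5 listed, 66.6 to 67.9) and diver (9 listed, 11.8 to 12.2). Others had a wider range, such as 297 (4 listed, 5.25 to 127). Burdock insertions had a median of the authors' means of 2239 normalized reads, against 143.1 for blood and 6072 for Transpac. Copies within a family may share reads, so no error is given for these medians, and the order of families was not tested.

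Lists of related genes gave the following counts. The share of annotated genes in any list was 0.474%, so that few or no members are the usual count for lists of this size. Of 6 genes known to respond to Capicua, tll, hkb, ind, aos, mirr and pip, 0 were in any list. The lists give no level for a gene that is not listed, so whether these 6 were expressed in the ovaries is not known. Of 28 piRNA pathway genes, minotaur among them, 0 were in any list. Some markers of other tissues and of the eggshell moved between the same libraries, where 0.338% of annotated genes were listed as higher and 0.114% as lower. The marker lists were chosen with earlier results of these data known, so their counts are a description and test nothing. Of 5 fat body markers 4 were higher, at 9.28-fold to 33.9-fold. These 4 were Fbp1 and the larval serum protein genes Lsp1alpha, Lsp1beta and Lsp2. Of 7 muscle markers 4 were higher, at 2.25-fold to 3.21-fold, and of 4 hemocyte markers 1 was higher, at 2.68-fold. Of 8 eggshell genes of follicle cells 5 were lower in the homozygous library, by 2.38-fold to 9.12-fold, and of 4 germline markers 0 were listed. The marker counts are for up to 10 mappings. With unique mapping 5 muscle markers were higher, and the other marker counts were the same. In ovary RNA a change in the share of a cell type and a change of RNA per cell cannot be told apart, and the part of these shifts in the Burdock values was not tested.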

How the data were processed

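Per the submitters' processing notes, TopHat 1.4.1, Bowtie 0.12.8, bedtools, DESeq 1.8.2 and build dm3 were used, with no role stated. Total RNA was primed with not-so-random primers, per the labels' protocols. The authors deposited 5 lists, of which the 4 of genes and insertions were used. The signal values deposited are normalized reads as a mean over both libraries, and the deposited fold, a ratio with the heterozygous value on top, was inverted here, with its log2 and the authors' raw and adjusted p-value. Another 4 columns of per-library values, in the lists for up to 10 mappings, are headed zucMUT and zucCD, names found in neither sample's labels, and were left out. The log2 fold with unique mapping minus that with up to 10 mappings was −0.00585 in 34 of 133 shared entries, the entries whose reads were also identical, and for this reason both kinds of list were read as the same pair of libraries, a point on which the labels are silent.

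Library values were computed from the deposited mean and ratio. In all 394 entries they were whole multiples of 0.8629 normalized reads (homozygous) and 1.159 (heterozygous), within 0.001 read or a millionth of the count, which gave reads per feature. By these steps the homozygous library was 1.34 times as deep as the heterozygous one, and total depth is not known. Raw and adjusted p imply about 23679 entries tested with up to 10 mappings, of which 1.55% were listed as higher. Intervals of ratios are exact conditional binomial intervals (scipy 1.17.1). The recovery of reads and the intervals were tested on simulated data. No count model was used, since the lists hold selected features. For genes with several entries, that of the highest mean was used. Positions are from Ensembl release 115 (dm6), matched by FlyBase identifier. No genome sequence was used. All members and host genes are named, and neighbours within 5000 bases where listed. Members and gene lists were chosen with earlier results of these data known.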

Additional observations from a re-analysis of the deposited data

How the results depend on the processing

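No paired analysis was possible because there was a single library of each genotype, so none could be left out either. The count of 11 listed Burdock insertions stayed at 11 with an adjusted p under 0.01 and with a fold of at least 16, and was 10 with a mean of at least 50. The 11 insertions were chosen by these same values, so these counts were fixed in advance. Their folds were at least 25.8, and their adjusted p-values in the authors' deposited table were at most 0.00474. Their median fold of 26.4 ran from 24.8, with a pseudocount of 10, to 26.4. For cic the ratio of gene to insertion, 1.286 by the means, was 1.163 in the homozygous library and, in a comparison added after seeing the data, 4.497 in the heterozygous library. This difference follows from the remainder of cic, which makes up a larger share of its heterozygous reads. For CG9766 and CG14669 the ratio stayed at 1 in each library. With tolerances of 5% and 20%, 2 host genes lay near their insertion, as with 10%. Matching by name in place of identifier also found 0 host genes with unique mapping. The median over insertions of at least 6400 bases, 26.4, was added after seeing the data. The share of unique windows per insertion was not run, as no genome sequence was used. Few heterozygous reads limit Burdock{}4322, Burdock{}313 and Burdock{}74, with 3, 9 and 16.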
